A study of Mus musculus with 6 samples.

Results

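The circadian clock genes described here were 10 genes of the molecular clock, *Nr1d1*, *Nr1d2*, *Per1*, *Per2*, *Per3*, *Dbp*, *Tef*, *Ciart*, *Bhlhe40* and *Arntl*, found by symbol among 19489 genes with mRNA values in mouse embryonic stem cells (ESCs). They were chosen after *Nr1d1* had been seen at a lower level in ESCs that overexpressed *Dppa3* (*Dppa3* OE ESCs), so their values in OE ESCs against control (Con) ESCs are given as a description without a test. *Dppa3* encodes a maternal factor that protects and shapes DNA methylation in the early embryo. Con ESCs had the label wild type and received the empty pLch3.7 vector, and *Dppa3* OE ESCs received the same vector carrying the *Dppa3* coding sequence behind the CAG promoter. All cells went through puromycin selection and were grown in serum with LIF. Whether picked colonies or briefly selected cells were sequenced, which ESC line was used, and when cells were harvested is not given in the sources used here. The strain label differed for each library and ran in sample order from 129S2/SvPas to 129S7/SvPas.

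There were 3 Con and 3 OE libraries with a total of 17408954 to 18176939 estimated read counts each. Libraries 1 and 2 of each genotype were called pair 1 and pair 2 here. The third Con and OE libraries carried the unexplained label D7 and were kept apart as the D7 pair. Levels are in FPKM, read fragments corrected for transcript length and sequencing depth, which allows genes to be compared per length. *Dppa3* itself was at 6.09 and 3.89 FPKM in Con-1 and Con-2, at 279 FPKM in both OE-1 and OE-2, and at 26.2 and 131 FPKM in the Con and OE libraries of the D7 pair. The overexpression was thus 45.8-fold and 71.7-fold in pairs 1 and 2 and 4.99-fold in the D7 pair. *Pou5f1*, which defines ESCs, was at 312 FPKM or more in all 6 libraries. The study's methods speak in general of independent experiments for each condition, but no source ties these libraries to separate cultures, and the p-values below therefore measure only the spread between them, which may be technical.

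The mammalian clock is a feedback loop. ARNTL (BMAL1) pairs with CLOCK and binds E-box sequences of *Per*, *Cry*, *Nr1d*, *Dbp* and *Ciart* genes, and the PER and CRY proteins then repress their own activators. A second loop runs through NR1D1 and NR1D2 (REV-ERB proteins), which compete with ROR proteins at ROR elements, among them those of *Arntl*. DBP and TEF bind D-box sequences, to which NFIL3 binds as a repressor. In cultured cells the loops keep time cell by cell, and serum or glucocorticoids set their phase. Pluripotent stem cells are known to express many of these genes without a running circadian oscillation, which appears as they differentiate.

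Promoter windows from the RefSeq table (GRCm38.p6), 250 bases before to 50 bases after the transcription start, were found for 8 of the 10 genes in 11 windows. *Per2* and *Bhlhe40* had none. The 250 bases before the start are shown for 4 genes. *Ciart*, *Per3* and *Per1* are examples of genes with a match to a clock motif, with *Per1* shown at the start whose window held it. *Tef*, which also held matches, is not shown. *Nr1d1* is shown because the gene led to the choice of the set. Capitals mark an exact match on either strand to the E-box CACGTG or to the D-box TTATGTAA. The windows are chr3:95882229-95882478 on the minus strand for *Ciart*, chr4:151044666-151044915 on the minus strand for *Per3*, chr11:69098699-69098948 on the plus strand for *Per1*, and chr11:98775378-98775627 on the minus strand for *Nr1d1*.
Ciart: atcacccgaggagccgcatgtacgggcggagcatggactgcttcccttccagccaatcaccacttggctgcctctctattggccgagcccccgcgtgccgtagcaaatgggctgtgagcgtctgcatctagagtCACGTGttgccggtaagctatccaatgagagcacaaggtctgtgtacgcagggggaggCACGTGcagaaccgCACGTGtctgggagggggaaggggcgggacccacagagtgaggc
Per3: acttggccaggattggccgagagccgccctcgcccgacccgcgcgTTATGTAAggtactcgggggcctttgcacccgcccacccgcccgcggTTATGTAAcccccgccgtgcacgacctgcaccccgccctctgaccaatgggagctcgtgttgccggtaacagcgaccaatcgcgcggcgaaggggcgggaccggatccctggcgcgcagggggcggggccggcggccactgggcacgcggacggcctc
Per1: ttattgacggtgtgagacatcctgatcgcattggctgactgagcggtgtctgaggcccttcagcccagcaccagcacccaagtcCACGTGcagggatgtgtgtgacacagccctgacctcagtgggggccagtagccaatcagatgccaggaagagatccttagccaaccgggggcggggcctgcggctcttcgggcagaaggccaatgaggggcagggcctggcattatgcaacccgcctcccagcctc
Nr1d1: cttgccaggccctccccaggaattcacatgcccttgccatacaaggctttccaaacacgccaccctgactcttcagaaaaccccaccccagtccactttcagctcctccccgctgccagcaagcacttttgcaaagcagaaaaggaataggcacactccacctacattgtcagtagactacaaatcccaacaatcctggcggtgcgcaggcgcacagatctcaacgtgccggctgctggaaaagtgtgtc

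The window of *Ciart* held 3 E-boxes, at 116, 58 and 44 bases before the start, while 7.15% of the 32851 windows of all genes held at least 1. *Per1* held 1 E-box 166 bases before one of its 2 starts, and *Tef* held 1 in each of its 2 windows. *Per3* held 2 D-boxes TTATGTAA, at 205 and 158 bases before the start, and 0.938% of all windows held this motif. A ROR element core, TAGGTCA, stood 30 bases after the second start of *Arntl*, with 2.61% of all windows holding 1. Capitals mark it here, in the stretch chr7:113207533-113207555 on the plus strand.
Arntl: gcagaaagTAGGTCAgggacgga
The other D-box spelling, TTACGTAA, and the cAMP response element TGACGTCA were found in 0.119% and 1.79% of all windows and in none of the clock gene windows. *Nr1d1*, *Nr1d2* and *Dbp* held no exact match to any of the 5 motifs in these windows. A match is a description of the letters, and binding was not measured.

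*Bhlhe40*, a transcriptional repressor of E-box genes that many stimuli induce, had the highest mean level of the 10 at 26.1 FPKM over 6 libraries. *Arntl*, the activator of the loop, followed at 12.6 FPKM, *Ciart*, a repressor of the CLOCK and ARNTL pair, at 12.4 FPKM, and *Per1*, which also responds directly to serum and cAMP, at 11.1 FPKM. Means of 7.36 FPKM for *Tef*, 6.39 FPKM for *Nr1d2* and 5.06 FPKM for *Nr1d1* stood below the median of the genes tested, which was 9.51 FPKM. *Per3* and *Dbp* were low at 2.22 and 2.12 FPKM, and *Per2* was near the floor at 0.318 FPKM. Neighbours in this order overlapped in their ranges over the 6 libraries except at 2 steps. The lowest *Nr1d1* library, at 3.78 FPKM, was above the highest *Per3* library, at 3.07 FPKM, and the lowest *Dbp* library, at 1.40 FPKM, was above the highest *Per2* library, at 0.45 FPKM. *Per2*, the period gene that sustains rhythms in most tissues, had 24 to 44 estimated reads per library and failed the filter on low values (mean of at least 0.5 FPKM), so 9 of the 10 genes were tested.

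**Figure D1:**
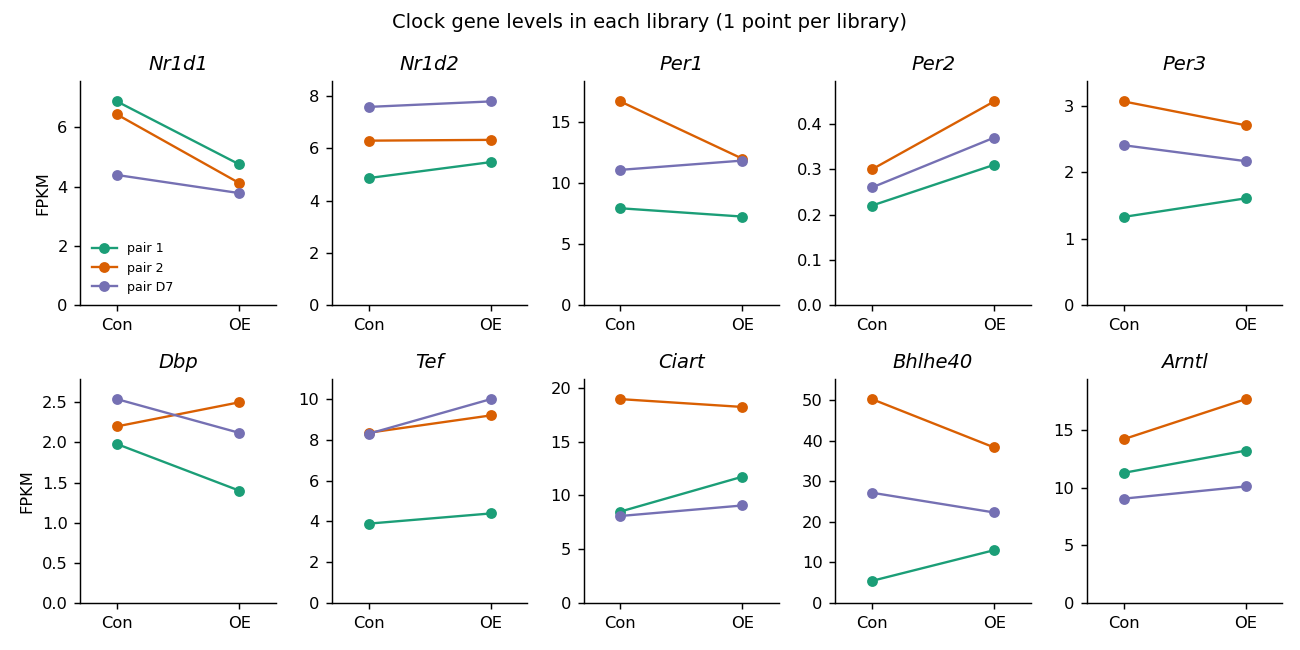
Level of each of the 10 clock genes in FPKM (vertical axes, linear and starting at 0) in the Con and OE library of pair 1, pair 2 and the D7 pair, with 1 point per library and a line joining the libraries of a pair. Both libraries of pair 2 lie above both libraries of pair 1 for 8 genes, and *Nr1d1* falls from Con to OE in each pair.

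Among the repressors, *Bhlhe40* was at 5.43 FPKM in Con-1 and 50.2 FPKM in Con-2, at 13.0 and 38.3 FPKM in OE-1 and OE-2, and at 27.2 and 22.3 FPKM in the Con and OE libraries of the D7 pair. Pair 2 was highest and pair 1 lowest in both genotypes. *Ciart* was at 8.50, 19.0, 11.8 and 18.2 FPKM in Con-1, Con-2, OE-1 and OE-2, and at 8.09 and 9.07 FPKM in the D7 pair. *Per1* was at 7.93, 16.7, 7.25 and 12.0 FPKM in the same order, and at 11.1 and 11.8 FPKM in the D7 pair. *Per3*, the least conserved in function of the period genes, was at 1.33, 3.07, 1.61 and 2.71 FPKM, and at 2.41 and 2.17 FPKM in the D7 pair. For *Ciart*, *Per1* and *Per3* both libraries of pair 2 were above both of pair 1. The D7 pair lay between those pairs for *Per3*, while for *Ciart* its Con library was the lowest of the 6. *Per2* was at 0.22, 0.30, 0.31 and 0.45 FPKM and at 0.26 and 0.37 FPKM in the D7 pair.

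Among the PAR bZIP activators, which drive D-box genes, *Tef* was at 3.89, 8.35, 4.39 and 9.20 FPKM in Con-1, Con-2, OE-1 and OE-2, and at 8.30 and 10 FPKM in the D7 pair. *Dbp* was at 1.98, 2.20, 1.40 and 2.50 FPKM, and at 2.54 and 2.12 FPKM in the D7 pair. *Tef* was thus low in pair 1 alone, and *Dbp* was low in every library, at 1.40 to 2.54 FPKM with 40 to 69 estimated reads per library. *Arntl* was at 11.3, 14.2, 13.2 and 17.7 FPKM, and its 2 lowest libraries were those of the D7 pair, at 9.05 and 10.1 FPKM.

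Of the REV-ERB genes, *Nr1d1* was at 6.87, 6.43, 4.75 and 4.12 FPKM in Con-1, Con-2, OE-1 and OE-2, and at 4.39 and 3.78 FPKM in the Con and OE libraries of the D7 pair. *Nr1d2* was at 4.86, 6.29, 5.47 and 6.32 FPKM, and at 7.58 and 7.79 FPKM in the D7 pair. The 2 paralogs thus stood in opposite order between the D7 pair and Con-1 and Con-2, with *Nr1d1* lower and *Nr1d2* higher in the D7 pair. *Nr1d1* was the only one of the 10 genes with lower levels in pair 2 than in pair 1 in both genotypes.

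Pair 2 against pair 1 was the widest contrast among the clock genes. It was tested over 4 libraries with genotype as a term. The genes were not chosen on this contrast, though earlier results of these data were known when they were chosen. It sets the libraries of those numbers against each other and not conditions, since no source says what the numbers stand for. The libraries of a pair deviated from the genotype means together, so this contrast is closer to 1 pair against 1 pair. Its p-values measure how far Con and OE differed in the step from pair 1 to pair 2. They do not measure a spread between pairs. By edgeR's quasi-likelihood test with Benjamini-Hochberg adjustment, 6 of the 9 tested clock genes were higher in pair 2 and 0 were lower, where 26.0% of all 13494 genes tested were higher and 25.4% were lower. The median log2 fold change was 0.81 over the 9 genes and 0.02 over all genes tested. Pair 2 was above pair 1 without overlap in FPKM for 8 of the 10 genes, all but *Nr1d1* and *Per2*, against 46.1% of all genes tested.

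*Bhlhe40* differed most, with a log2 fold change of 2.24 (SE 0.22) and an adjusted p of 7.95e-07 in edgeR. DESeq2 gave *Bhlhe40* 2.28 with a wider SE of 0.74 and an adjusted p of 0.0123. Its FPKM ratio of pair 2 to pair 1 was 9.25 in Con and 2.95 in OE. *Tef* followed at 0.97 (SE 0.13, edgeR adjusted p = 9.31e-06) with ratios of 2.15 and 2.10 in Con and OE, and *Per3* at 0.96 (SE 0.15, edgeR adjusted p = 7.44e-05) with ratios of 2.31 and 1.68. *Ciart* was higher by 0.83 (SE 0.15, edgeR adjusted p = 2.30e-04) and *Per1* by 0.81 (SE 0.11, edgeR adjusted p = 1.43e-05). Each of these 5 genes was past the threshold under every alternative run. *Arntl* was near the threshold at 0.29 (SE 0.11, edgeR adjusted p = 0.0407), and its adjusted p was 0.0508 with DESeq2 size factors, 0.0956 without the filter and 0.252 with DESeq2. *Dbp* at 0.38 (SE 0.28), *Nr1d2* at 0.19 (SE 0.13) and *Nr1d1* at -0.24 (SE 0.14) did not pass, with edgeR adjusted p-values of 0.262, 0.207 and 0.167.

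**Figure D2:**
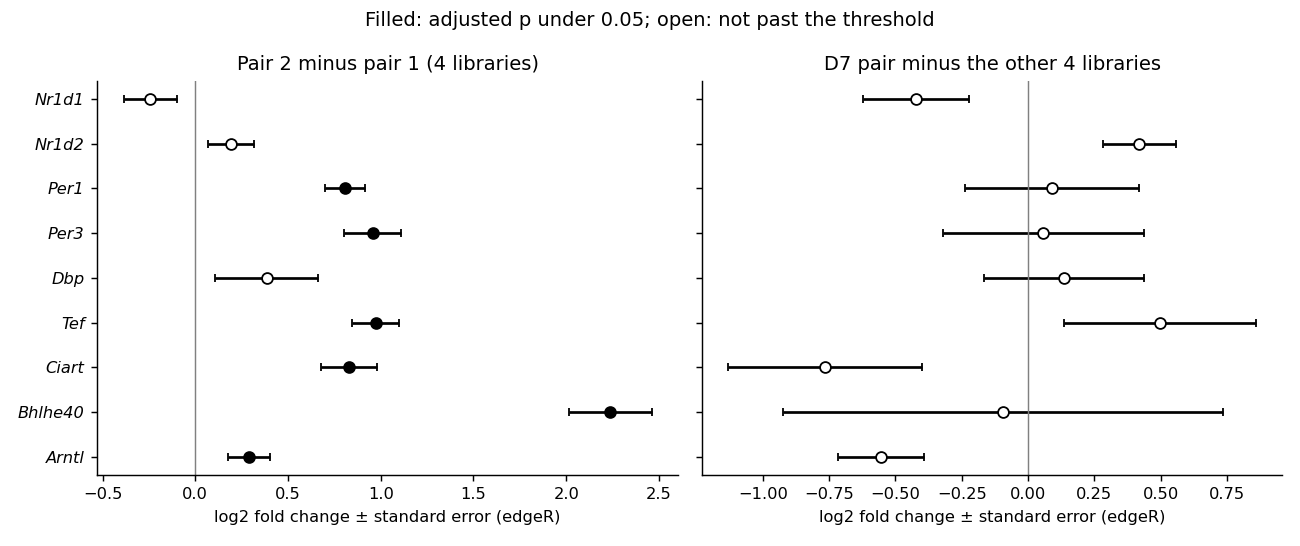
Log2 fold changes with standard errors (horizontal axes, edgeR) of the 9 tested clock genes in pair 2 over pair 1 (left, 4 libraries) and in the D7 pair over the other 4 libraries (right, 6 libraries), with filled points for adjusted p under 0.05. On the left 6 genes are filled, led by *Bhlhe40* at 2.24, and on the right none is.

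The other genes of the clock, a list of 24 regulators, moved in both directions between these pairs. Of 20 tested, 8 were higher and 4 lower in pair 2 by edgeR, with a median log2 fold change of 0.26. Over all genes tested 26.0% were higher and 25.4% lower. *Bhlhe41*, the paralog of *Bhlhe40*, was higher by 3.50 (SE 0.42), from 0.04 and 0.21 FPKM in Con-1 and OE-1 to 1.94 and 1.11 FPKM in Con-2 and OE-2. *Nfil3*, the D-box repressor, was higher by 1.45 (SE 0.23), from 1.59 and 2.67 FPKM to 6.69 and 5.64 FPKM. *Rora*, an activator at ROR elements, was higher by 1.83 (SE 0.22) on counts, whereas its FPKM went only from 0.98 and 1.14 to 1.85 and 1.58, so the 2 scales of this gene gave different sizes. *Sirt1*, a deacetylase that acts on clock proteins, was lower by -0.98 (SE 0.12), from 44.9 and 36.1 FPKM to 19.0 and 25.0 FPKM.

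The core partners differed less. *Clock* was at 3.67 to 5.02 FPKM over the 6 libraries, *Cry1* at 15.8 to 20.7 FPKM and *Cry2* at 6.51 to 10.7 FPKM, and *Npas2*, the paralog of *Clock*, was at 0.10 to 0.26 FPKM and was not tested. *Clock* and *Cry1* did not pass in pair 2 against pair 1, and *Cry2* did at 0.32 (SE 0.13, edgeR adjusted p = 0.0407), though not with DESeq2 (adjusted p = 0.261).

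Genes downstream of the clock were split as well, as were all genes tested, with 26.0% higher and 25.4% lower. The counts of the 2 lists below are to be read against these shares. Of 15 clock output genes, 7 were higher and 3 lower in pair 2 by edgeR, with a median log2 fold change of 0.09. The largest were *Ppp1r3c*, a glycogen-targeting subunit, at 2.22 (SE 0.25), *Lonrf3* at 1.32 (SE 0.14), *Herpud1*, an ER stress gene, at 0.83 (SE 0.14), and *Nampt*, the rate-limiting enzyme of NAD salvage, at 0.73 (SE 0.09). Of 8 tested glucocorticoid response genes, 3 were higher and 2 lower, with a median of 0.13. *Tsc22d3* at 1.59 (SE 0.32), *Dusp1* at 1.33 (SE 0.10) and *Mt2* at 0.80 (SE 0.08) were higher in pair 2, and *Sgk1* at -1.05 (SE 0.10) was lower. *Dusp1*, a phosphatase gene that serum also induces, was at 19.7 and 23.5 FPKM in Con-1 and OE-1 and at 59.2 and 56.8 FPKM in Con-2 and OE-2.

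Cell type markers were compared between pairs 1 and 2 as well. In this contrast edgeR called 26.0% of all 13494 genes tested higher and 25.4% lower, and the counts below are to be read against these shares. Of the marker lists, the edgeR test called 2 of 10 ESC markers higher and 4 lower, 3 of 5 tested fibroblast and feeder markers higher and 1 lower, 3 of 5 tested trophectoderm markers higher and 0 lower, 1 of 5 primitive endoderm markers higher and 1 lower, and 1 of 5 primed and lineage markers higher and 3 lower. Their summed levels were 4137 and 4236 FPKM in pair 1 and 4841 and 4616 FPKM in pair 2 for ESC markers, 35.3 and 41.6 against 61.8 and 56.1 FPKM for fibroblast and feeder markers, and 38.2 and 45.5 against 63.2 and 56.8 FPKM for trophectoderm markers. Primitive endoderm markers summed to 14.8 to 15.2 FPKM and primed and lineage markers to 83.7 to 105 FPKM in these 4 libraries. The ESC sum rose with *Dppa5a* and *Tdgf1*, while *Nanog*, *Pou5f1*, *Zfp42* and *Utf1* were the markers called lower. Most of the fibroblast and feeder sum was *Thy1*, at 30.8 and 36.9 FPKM in pair 1 and 53.0 and 49.0 FPKM in pair 2. The fibroblast markers *Dcn* and *Lum* were at 0.09 FPKM or less in the 4 libraries. The part of these markers in the clock gene values was not tested, and in bulk libraries fewer cells of a type and less RNA per cell cannot be told apart.

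The D7 pair was set against the other 4 libraries over 6 libraries with genotype as a term. By edgeR 0 of the 9 clock genes passed with Benjamini-Hochberg adjustment, where 6.77% of all 13809 genes tested were higher and 3.06% lower in the D7 pair. The unadjusted edgeR p was 0.0239 for *Nr1d2*, which was higher, and 0.0149 for *Arntl*, which was lower. DESeq2 called 1 of the 9 lower and 0 higher, and limma-voom called 0. Over all genes DESeq2 also called more than edgeR did, so its 1 call is not read as a trait of the clock genes. *Arntl* had a log2 fold change of -0.56 (SE 0.16, edgeR adjusted p = 0.0871, DESeq2 adjusted p = 0.0397) and *Nr1d2* of 0.42 (SE 0.14, edgeR adjusted p = 0.111). These were the only clock genes without overlap in FPKM, *Nr1d2* with both D7 libraries above the other 4 and *Arntl* with both below, and 23.6% of all genes tested stood apart in each direction.

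*Ciart* had -0.77 (SE 0.36), *Nr1d1* -0.42 (SE 0.20) and *Tef* 0.50 (SE 0.36), with edgeR adjusted p-values of 0.223, 0.223 and 0.402. *Dbp* at 0.14 (SE 0.30), *Per1* at 0.09 (SE 0.33), *Per3* at 0.06 (SE 0.38) and *Bhlhe40* at -0.09 (SE 0.83) were near 0, with standard errors that leave room for sizeable change in either direction. The ratio of the D7 library to the mean of the other libraries of its genotype was 0.589 in Con and 0.605 in OE for *Ciart*, 0.710 and 0.654 for *Arntl*, and 1.36 and 1.32 for *Nr1d2*. For *Nr1d1* it was 0.660 in Con and 0.852 in OE. The 2 libraries of the D7 pair deviated from the genotype means together, so this contrast is closer to 1 pair against 2 pairs, and with the replicate number as a random effect in limma-voom 0 of the 9 genes passed and the adjusted p of *Arntl* was 0.378.

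Of the other clock genes 1 of 22 tested was higher in the D7 pair and 0 lower, with a median log2 fold change of 0.27. It was *Fbxw11*, which encodes a ubiquitin ligase subunit that marks PER proteins for degradation, at 0.47 (SE 0.10, edgeR adjusted p = 0.0448). *Fbxw11* was at 17.4 to 18.9 FPKM in the 4 libraries of pairs 1 and 2 and at 24.1 and 26.4 FPKM in the D7 pair. None of the 22 passed with the replicate number as a random effect. Of 15 clock output genes edgeR called 0, with *Cdkn1a* at 0.79 (SE 0.19, edgeR adjusted p = 0.0613) and *Noct* at -1.08 (SE 0.27, edgeR adjusted p = 0.065) nearest, and DESeq2 called both, with adjusted p-values of 0.00537 and 0.00178. Of 8 glucocorticoid response genes 1 was lower, *Fkbp5* at -0.49 (SE 0.11, edgeR adjusted p = 0.0487, and 0.355 with the replicate number as a random effect in limma-voom).

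The D7 pair also stood apart in cell type markers. By edgeR 5 of 10 ESC markers were lower and 0 higher, with *Pou5f1* at 384 and 312 FPKM against 575 to 683 FPKM. *Dppa5a* went the other way, at 2083 and 2268 FPKM against 1238 to 1701 FPKM (edgeR adjusted p = 0.063, DESeq2 adjusted p = 0.0116). *Nanog*, at 320 and 327 FPKM, lay within the 261 to 471 FPKM of the others. Of 7 tested trophectoderm markers 5 were higher and 0 lower, and their list summed to 672 and 1188 FPKM in the D7 pair and to 38.2 to 63.2 FPKM in the others. *Krt8*, *Krt18* and *Hand1* carried this sum, while *Cdx2* and *Elf5* were at 1.49 FPKM or less in every library. Of 8 tested fibroblast and feeder markers 5 were higher and 0 lower, and their list summed to 135 and 324 FPKM against 35.3 to 61.8 FPKM, with *Dcn* and *Lum* at 0.21 FPKM or less in every library. *Thy1* went the other way, at 22.95 and 20.97 FPKM against 30.8 to 53.0 FPKM (edgeR adjusted p = 0.0593, DESeq2 adjusted p = 0.00208). Of 5 primitive endoderm markers 2 were higher and 1 lower, and of 8 primed and lineage markers 2 were higher and 0 lower. With the replicate number as a random effect in limma-voom, 1 ESC marker stayed lower (*Esrrb*), 4 trophectoderm and 4 fibroblast and feeder markers stayed higher, and 0 primitive endoderm and 0 primed and lineage markers passed. The adjusted p of *Pou5f1* was then 0.0795. ESC markers summed to 3921 and 3768 FPKM in the D7 pair, with *Dppa5a* the largest part. The part of these markers in the levels of *Arntl*, *Nr1d2* and the other clock genes of the D7 pair was not tested.

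**Figure D3:**
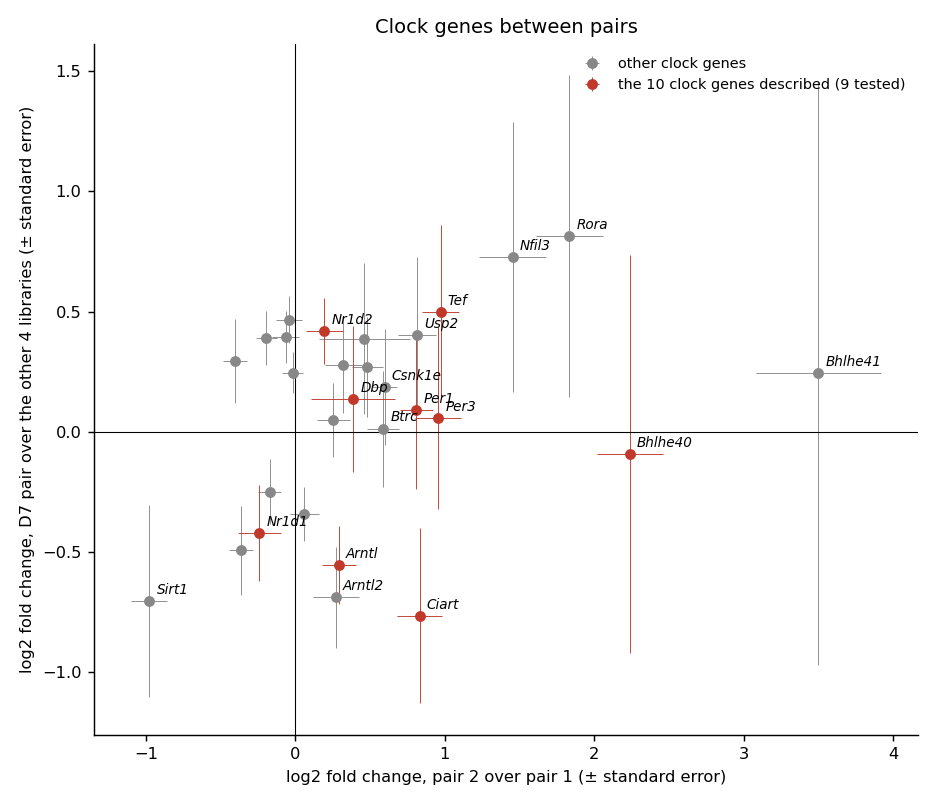
Log2 fold change (edgeR, with standard errors) of pair 2 over pair 1 on the horizontal axis and of the D7 pair over the other 4 libraries on the vertical axis, for the 9 tested clock genes (red) and the other clock genes (grey) tested in both. The axes share the libraries of pairs 1 and 2, and *Bhlhe40*, *Ciart* and *Tef* stand at 2.24, 0.83 and 0.97 on the horizontal and at -0.09, -0.77 and 0.50 on the vertical axis.

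*Dppa3* OE against Con was the contrast that led to these genes, and its values are descriptive. *Nr1d1* was lower in OE than in Con in each of the 3 pairs, with ratios of 0.691 in pair 1, 0.641 in pair 2 and 0.861 in the D7 pair. Its mean over libraries 1 and 2 was 6.65 ± 0.31 FPKM for Con ESCs and 4.44 ± 0.45 FPKM for OE ESCs (SD, n = 2), and the Con library of the D7 pair, at 4.39 FPKM, lay below OE-1. *Arntl* was higher in OE in each pair, with ratios of 1.17, 1.24 and 1.12, *Tef* with 1.13, 1.10 and 1.20, and *Nr1d2* with 1.13, 1.00 and 1.03. *Per2* had ratios of 1.41, 1.5 and 1.42 and was the only gene of the 10 with every OE library above every Con library, on 24 to 44 estimated reads. In all, 4 of the 10 genes were higher and 1 was lower in OE in all 3 pairs, where 21.6% of the genes tested were higher and 9.86% lower.

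The other 5 genes changed direction between pairs. *Bhlhe40* had OE over Con ratios of 2.39 in pair 1, 0.763 in pair 2 and 0.821 in the D7 pair. *Ciart* had 1.38, 0.962 and 1.12, *Per3* had 1.21, 0.883 and 0.900, *Dbp* had 0.707, 1.14 and 0.835, and *Per1* had 0.914, 0.719 and 1.07. The spread between pairs of one genotype was wider than the OE over Con ratio for *Bhlhe40*, *Ciart*, *Per1*, *Per3* and *Tef*, whose levels in pairs 1 and 2 differed 1.55-fold or more in both genotypes. This spread was also the wider one for *Arntl* and *Nr1d2*. Their ratios of pair 2 to pair 1 were 1.26 in Con and 1.34 in OE for *Arntl*, and 1.29 and 1.16 for *Nr1d2*. For *Nr1d1* the ratio of pair 2 to pair 1 was 0.936 in Con and 0.867 in OE, and its Con library of the D7 pair was at 0.660 of the Con mean.

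**Figure D4:**
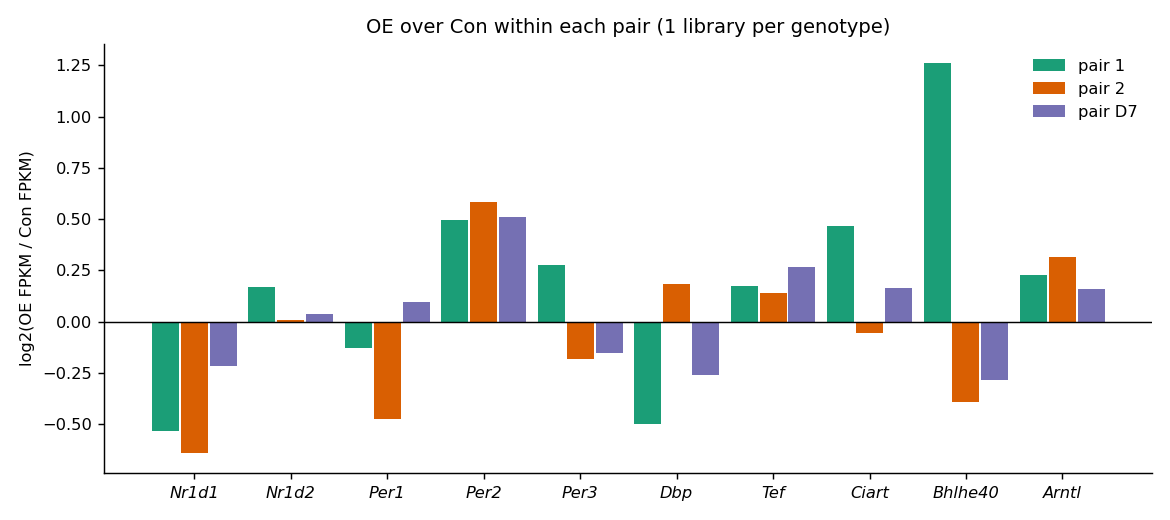
Log2 of the FPKM ratio of OE over Con (vertical axis, 0 for equal levels) for the 10 clock genes within pair 1, pair 2 and the D7 pair, with 1 library per genotype behind each bar and no error bar. The 3 bars of *Nr1d1* lie below 0, at -0.53, -0.64 and -0.22, and those of *Nr1d2*, *Per2*, *Tef* and *Arntl* lie above it.

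Over libraries 1 and 2, edgeR called 0% of the 13494 genes in OE against Con without the replicate number, while 58 genes were up and 4 down at an unadjusted p under 0.05, and DESeq2 called 2 genes. With the number as a block it called 0.763% higher and 0.126% lower. The clock genes were chosen on this contrast, so no call of theirs is given. The fitted log2 fold change of *Nr1d1* was -0.63 both without and with the block. That of *Per1* was -0.39 and -0.35, that of *Arntl* 0.23 and 0.22, and that of *Bhlhe40* -0.14 and 0.27. *Bhlhe40* thus turned its sign with the block, and it ran from -1.06 without OE-2 to 2.13 without Con-2. Over the 14 settings run *Nr1d1* stayed within -0.49 to -0.78 and *Arntl* within 0.04 to 0.39, while the other 7 tested genes took both signs. The settings share libraries and *Nr1d1* led to the choice of the set, so its steady sign is a description and gives no support. The median log2 fold change without the block was -0.11 over the 9 clock genes and -0.01 over all genes.

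Of the other clock genes, which were not chosen on this contrast, 0 of 20 passed without the block and 1 passed with it. It was *Arntl2*, the paralog of *Arntl*, at 0.68 (SE 0.15, edgeR adjusted p = 0.0433 with the block), and its adjusted p was 0.279 over all 6 libraries with the block. *Arntl2* was at 3.23, 4.05 and 2.54 FPKM in Con-1, Con-2 and the Con library of the D7 pair, and at 5.42, 7.15 and 3.43 FPKM in the OE libraries. It was higher in OE within each pair, and its levels overlapped over the 6 libraries. None of 15 clock output genes passed in either fit, and of 8 glucocorticoid response genes 1 passed with the block. It was *Mt2*, a metallothionein gene, at 0.41 (SE 0.08, edgeR adjusted p = 0.0157). *Mt2* was at 640, 1356 and 911 FPKM in Con-1, Con-2 and the Con library of the D7 pair, and at 1003, 1636 and 576 FPKM in the OE libraries, so it was higher in OE in pairs 1 and 2 and lower in the D7 pair. Over all 6 libraries with the block it was at 0.05 (edgeR adjusted p = 0.965). Whether OE and Con differed otherwise in the D7 pair than in pairs 1 and 2 was tested with an interaction term. By edgeR it was called in 0 genes, while 47 genes had a positive and 22 a negative term at an unadjusted p under 0.05, and DESeq2 called 2. With the block it was called in 199 of 13809 genes, of which 1 was *Mt2*, at -1.10 (SE 0.14, edgeR adjusted p = 7.22e-05). None of the 9 tested clock genes was among them. With so small a share called over all genes, no call among 9 says little. The contrast that chose the clock genes also enters this term.

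Across the 6 libraries the clock genes did not vary as 1 group. On the log2 of FPKM plus 0.5, *Per3* and *Bhlhe40* had a Pearson r of 0.99, *Per1* and *Per3* of 0.92, *Ciart* and *Arntl* of 0.90 and *Nr1d2* and *Tef* of 0.88. *Nr1d1* and *Nr1d2* had an r of -0.72. These describe 6 libraries that fall into 3 pairs. Of the 9033 genes with a mean of at least 5 FPKM, those most like *Nr1d1* were *Rln3* (0.97), *Mrps36* (0.97), *Uqcrc1* (0.97), *Tkt* (0.94) and *Mrpl27* (0.94), by the same measure over 6 libraries. *Rln3* was at 6.90, 6.17, 5.23 and 4.35 FPKM in Con-1, Con-2, OE-1 and OE-2 and at 4.53 and 3.60 FPKM in the D7 pair. Among those most like *Dbp* were *Lrrc17* (1.00), *Flcn* (0.98), *Ptk2b* (0.95) and *Nr2c2ap* (0.92).

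Some clock genes share exon bases with a neighbour on the opposite strand in the GENCODE M21 annotation of GRCm38, and whether counting used the strand is not given in the sources used here. *Nr1d1* (chr11:98767932-98775377) overlaps the thyroid hormone receptor gene *Thra* over 263 exon bases. *Thra* was at 4.17, 7.30, 4.85 and 5.98 FPKM in Con-1, Con-2, OE-1 and OE-2 and at 7.11 and 6.99 FPKM in the D7 pair, so its order over the libraries was not that of *Nr1d1*. *Dbp* (chr7:45705100-45710203) overlaps *Sphk2* over 539 exon bases. *Sphk2*, at 14.7 and 14.1 FPKM in pair 1 and 4.67 to 7.46 FPKM in the other 4 libraries, was highest where *Dbp* was lowest. *Per3* (chr4:150997018-151044707) overlaps the span of *Camta1* on the same strand without shared exon bases. *Camta1* was at 10.5 and 11.0 FPKM in pair 1, 20.5 and 21.3 FPKM in pair 2 and 14.6 and 17.1 FPKM in the D7 pair, the same order of pairs as *Per3*. *Tef*, *Bhlhe40* and *Arntl* share 193, 118 and 33 exon bases with antisense genes that were not analysed here. Values of these genes carry this uncertainty.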

How the data were processed

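Messenger RNA of mouse ESCs was sequenced in 6 libraries, 2 Con, 2 *Dppa3* OE and 1 of each with the label D7. The authors had libraries sequenced on BGISEQ-500 and mapped reads to mm10 with Bowtie2. Their deposited counts are RSEM's estimated counts of each gene, without normalization. HISAT and GRCm38.p6 stand in the submitters' processing notes instead, and versions are not given in the sources used here. The authors also deposited FPKM values, scaled by transcript length and depth and recognized as such from the values. Count columns with the D7 label have a heading of averages but values like the others.

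Counts were rounded and tested with edgeR 4.0.16 (R 4.3.3; TMM, factors of 0.944 to 1.05, quasi-likelihood test) with Benjamini-Hochberg adjustment over all genes and a threshold of 0.05. Genes with a mean of at least 0.5 FPKM were kept, 13494 for 4 libraries and 13809 for 6. Standard errors given for edgeR were derived from its F statistic. DESeq2 1.42.0 and limma 3.58.1 were alternatives, with DESeq2 size factors, no filter, libraries left out and the replicate number as a block. Scripts were tested on simulated data. Over 4 libraries edgeR's common dispersion gave a biological coefficient of variation of 0.283, and of 0.0804 once blocked.

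Deviations from the genotype mean of libraries with the same number correlated at 0.881, 0.756 and 0.889 over 12565 genes with a mean of at least 1 FPKM, and at -0.034 to -0.781 otherwise. The numbers were therefore taken to pair the libraries, although no source states it. With 2 libraries per group a one-gene permutation test cannot reach 0.05.

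The clock genes and lists were chosen with earlier results of these data known. Named were the 10 clock genes, *Dppa3*, the 5 genes most like *Nr1d1* and *Dbp*, and of each list up to 4 genes past the threshold with the largest fold change, or up to 2 with the smallest p. One of the genes most like *Dbp* is not reported here. *Arntl2*, *Clock*, *Cry1*, *Cry2* and *Npas2*, genes sharing exons with clock genes and single markers were named after their values were seen. Of 19489 genes, 19340 matched the reference by gene number, and 26 symbols turned into dates were restored.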

Additional observations from a re-analysis of the deposited data

Results flagged for a closer look

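*Per1* was lower in OE than in Con in pairs 1 and 2, with log2 ratios of -0.13 and -0.48, and higher in the D7 pair, with a log2 ratio of 0.0958, so the pairs moved in opposite directions. The interaction term for OE and the D7 label called no clock gene in edgeR, with or without the replicate number as a block. The contrast that chose the clock genes enters this term, so the absence of a call is only a description. The D7 value rests on 1 library per genotype, at 11.1 and 11.8 FPKM.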

How the results depend on the processing

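Without the replicate block 0 genes were called in OE against Con. DESeq2 called 2, the block 120, DESeq2 with the block 34, limma-voom with the block 121 and all 6 libraries with the block 1, and leaving out a library gave 1 to 90 (90 without Con-2). The D7 contrast called 1357 genes, DESeq2 2494, and the replicate block as a random effect 235. Leaving out a library gave 0 without the D7 OE library, 28 without the D7 Con library, 365 without OE-2, 429 without OE-1 and up to 2533 without Con-2. None of the clock genes was called there except 1 by DESeq2, *Arntl*. Pair 2 against pair 1 called 6936 genes and DESeq2 3601 (1573 higher, 2028 lower), and leaving out a library there left no residual degrees of freedom. The interaction of OE and D7 called 0 genes, 2 by DESeq2 and 199 with the block. *Bhlhe40* in the D7 contrast turned to 0.34 with limma-voom, 0.31 with the block as a random effect, 0.89 without Con-2 and 0.32 without OE-2, and was lowest at -0.45 without Con-1. *Per1* ran up to 0.36 and turned to -0.04 without Con-1, -0.07 without OE-1 and -0.14 without the D7 OE library. *Per3* ran up to 0.35 and turned to -0.14 without Con-1 and -0.08 without OE-1. The causes were not tested. The blocked DESeq2 and limma-voom fits of OE against Con were added after seeing the data. Over all settings the sign held for 2 of the 9 clock genes in OE against Con (*Nr1d1* and *Arntl*), for 6 in the D7 contrast and for 9 in pair 2 against pair 1. These counts are not alike, since they rest on 14, 12 and 5 settings. The 5 settings of pair 2 against pair 1 all used the same libraries with none left out, so they could hardly turn a sign. The settings share libraries and the genes were chosen on OE against Con, so a held sign there is only a description. Few reads limit the values of *Per2* and *Dbp*, and the number of libraries limits every test.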
